A study of Mus musculus with 8 samples.

Results

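Transcripts of the ion channel subunits that open on binding glutamate, GABA, glycine or, in neurons, acetylcholine were measured in mouse P19 cells in 8 cultures. P19 is an embryonal carcinoma line able to form neurons or muscle. The members were chosen by gene symbol alone: the AMPA, kainate, NMDA and delta glutamate receptor subunits (Gria, Grik, Grin and Grid), the GABA-A subunits (Gabr), the glycine receptor subunits (Glr) and the neuronal nicotinic subunits (Chrna2 to Chrna10 and Chrnb2 to Chrnb4). Of 37558 genes in the count table, 53 were members. They were 4 AMPA, 5 kainate, 7 NMDA, 2 delta, 19 GABA-A, 5 glycine and 11 nicotinic genes.

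Each culture was infected with a lentivirus in the presence of polybrene and then moved to Neurobasal medium with B27, so the GFP control went through the same medium change as the rest. The 8 groups were GFP, MyoD, NeuroD2, MD(ND2bHLH) chimera, the same chimera at a multiplicity of infection (MOI) of 100, its WC mutant, its WCS mutant, and WCS at MOI 100. MyoD is a driver of skeletal muscle and NeuroD2 of neurons, each through a basic helix-loop-helix (bHLH) domain that binds DNA. The chimera is MyoD with the bHLH domain of NeuroD2, made to ask whether that domain sets the lineage. The labels do not say which changes WC and WCS carry, and they give no MOI for the other 6 libraries. Every group was 1 library from 1 cell line, so differences between 2 libraries have no replicate check and carry no p-value.

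As background, AMPA, kainate and NMDA receptors are assemblies of glutamate-gated subunits that carry fast excitatory current, with the NMDA type needing the subunit encoded by Grin1. GABA-A and glycine receptors are anion channels of the cys-loop family, and most synaptic GABA-A receptors combine alpha, beta and gamma subunits. Neuronal nicotinic receptors belong to the same family: Chrna4 with Chrnb2 makes the main high-affinity receptor of the brain, Chrna3 with Chrnb4 and Chrna5 makes the receptor of autonomic ganglia, and Chrna7 forms receptors of its own.

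Levels are CPM, the counts of a gene per 1000000 counts of TMM-scaled library total. The totals of the 8 libraries ran from 26410500 to 43984066 counts. At these depths 3 counts, used as the floor for a gene with no count, correspond to 0.073 to 0.115 CPM. Of the 53 members, 29 reached 1 CPM in at least 1 library, 24 did not, and Gabra6 and Chrnb3 had no count in any library. Those at 1 CPM were all 4 AMPA genes, 4 of 5 kainate, 6 of 7 NMDA, 1 of 2 delta, 6 of 19 GABA-A, 2 of 5 glycine and 6 of 11 nicotinic genes. Among the 24 lower ones were Grik1, Grin2b, Gabra2, Gabra5, Gabra6, Gabrb1, Gabrd, Gabrg1, Gabrg3, Gabrp, Gabrq, Gabrr2, Gabrr3, Glra2, Glra3, Glra4, Chrna2, Chrna6, Chrna9, Chrna10 and Chrnb3. A member that passed only because 1 library was high had to differ, so counts over the 29 describe these libraries and are read against the share of all genes.

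The delivered genes were checked against the labels, and MyoD had 296 CPM of Myod1 where GFP had 0.681, while NeuroD2 had 180 CPM of Neurod2 where GFP had 2.5. Myod1 was at 116 CPM in the chimera, 555 in the chimera at MOI 100, 106 in WC, 77.3 in WCS and 857 in WCS at MOI 100. Neurod2 was at 13.8, 73.3, 15.8, 14.6 and 130 CPM in the same order. In Myod1, WCS was thus below the chimera without the MOI label and above it at MOI 100. Summed over a list of 10 neuron markers, CPM were 356 in GFP, 260 in MyoD, 743 in the chimera, 2447 in the chimera at MOI 100, 1823 in WC, 2032 in WCS, 4742 in WCS at MOI 100 and 3153 in NeuroD2. Of the 10, 8 reached 1 CPM in GFP and MyoD and all 10 in the other 6 libraries. Not every marker followed the sum: Nefl had 74.3 CPM in GFP and 27.0 in the chimera. A list of 8 muscle markers summed to 10084 CPM in MyoD, 1000 in the chimera, 1625 in the chimera at MOI 100 and 17.2 to 50 in the other 5 libraries, with Myog at 0 counts in WCS. Markers of undifferentiated P19 cells summed to 2650 CPM in GFP and 389 to 1144 elsewhere. Of these markers, 5 of 6 reached 1 CPM in every library, and Dppa5a had 0 counts in all but GFP and MyoD. Pou5f1 (1227 CPM) and Lin28a (1093 CPM) made up most of the GFP sum. Sox2 did not follow it, with 124 CPM in GFP and a range from 95.7 in MyoD to 205 in WCS. Neural progenitor markers summed to 670 to 1505 CPM and glial markers to 43.1 to 114 CPM, with S100b at 0 counts in 4 libraries. In bulk RNA of this kind, fewer cells of a type and less RNA per cell cannot be told apart.

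The promoters of the 5 nicotinic subunits that were higher over GFP, and of the kainate subunits Grik2 and Grik3, are shown because these genes were called in several of the comparisons below. They are not all such genes: Grin2a and Glra1 had no promoter in the set used, and that of Gabra4 is not shown. E-boxes are the short DNA words that bHLH factors bind. The word CAGATG was searched first. The next was CAGCTG, a word that reads alike on both strands. The last word searched was CAGGTG. Each was looked for on both strands of every promoter, from 250 bases before to 50 after the start in RefSeq (GRCm38.p6). The 250 bases before the start are printed 5′ to 3′ on the gene's strand, with these letters or their reverse complement in capitals.
Chrna4, chr2:181039178-181039427, minus strand: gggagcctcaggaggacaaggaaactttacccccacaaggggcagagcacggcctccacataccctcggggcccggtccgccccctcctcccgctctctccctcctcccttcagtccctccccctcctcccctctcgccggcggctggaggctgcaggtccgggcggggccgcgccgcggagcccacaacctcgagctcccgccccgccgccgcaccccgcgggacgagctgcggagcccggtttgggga
Chrnb2, chr3:89764633-89764882, minus strand: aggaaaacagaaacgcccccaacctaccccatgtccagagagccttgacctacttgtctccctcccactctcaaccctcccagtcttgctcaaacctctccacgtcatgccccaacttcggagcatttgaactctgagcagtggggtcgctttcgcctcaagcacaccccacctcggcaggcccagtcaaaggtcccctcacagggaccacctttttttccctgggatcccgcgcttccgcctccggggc
Chrna3, chr9:55026563-55026812, minus strand: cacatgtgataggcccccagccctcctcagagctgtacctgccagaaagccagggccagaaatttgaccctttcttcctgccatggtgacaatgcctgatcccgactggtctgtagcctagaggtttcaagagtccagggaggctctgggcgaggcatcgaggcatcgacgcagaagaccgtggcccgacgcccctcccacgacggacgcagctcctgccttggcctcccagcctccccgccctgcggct
Chrnb4, chr9:55048545-55048794, minus strand: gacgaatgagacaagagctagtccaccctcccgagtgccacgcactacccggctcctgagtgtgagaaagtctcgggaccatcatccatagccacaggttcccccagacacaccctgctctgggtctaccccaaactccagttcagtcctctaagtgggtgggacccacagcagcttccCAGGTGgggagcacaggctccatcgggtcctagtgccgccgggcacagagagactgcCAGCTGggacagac
Chrna5, chr9:54981238-54981487, plus strand: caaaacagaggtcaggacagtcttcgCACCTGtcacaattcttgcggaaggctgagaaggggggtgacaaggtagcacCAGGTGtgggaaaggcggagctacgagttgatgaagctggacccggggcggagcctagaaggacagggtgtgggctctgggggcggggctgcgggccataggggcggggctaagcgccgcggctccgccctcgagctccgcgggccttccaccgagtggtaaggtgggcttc
Grik3, chr4:125490446-125490695, plus strand: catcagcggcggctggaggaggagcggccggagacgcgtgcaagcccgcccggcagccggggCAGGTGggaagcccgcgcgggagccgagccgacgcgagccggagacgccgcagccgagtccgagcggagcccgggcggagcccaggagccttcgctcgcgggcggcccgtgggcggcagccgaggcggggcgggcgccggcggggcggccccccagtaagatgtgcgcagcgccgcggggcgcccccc
Grik2, chr10:49788755-49789004, minus strand: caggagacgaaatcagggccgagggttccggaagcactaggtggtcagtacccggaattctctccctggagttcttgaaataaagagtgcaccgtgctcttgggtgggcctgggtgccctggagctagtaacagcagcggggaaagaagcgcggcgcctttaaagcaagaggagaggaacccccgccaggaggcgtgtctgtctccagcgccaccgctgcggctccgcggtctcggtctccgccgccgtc
Positions are those of the first printed base of a word, counted from the start. Chrnb4 held CAGGTG at -71 and CAGCTG at -14. Chrna5 held CAGGTG at -224, on the other strand, and at -172, and its other listed start held none of the 3. Grik3 held CAGGTG at -188. Chrna3, Chrna4, Chrnb2 and Grik2 held none in these windows. RefSeq promoters were found for 37 of the 53 members, 42 in all, and 40.5% of them held at least 1 of the 3 words against 44.3% of all 32851 promoters. For CAGGTG the shares were 28.6% and 20.2%, for CAGCTG 9.52% and 16.3%, and for CAGATG 7.14% and 17.2%. A match describes the letters and not binding, which was not measured here.

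Between-gene levels were compared as CPM per kilobase of merged exon (CPM/kb), with lengths from GENCODE M21. Summed over the 53 members, the receptors stood at 46.6 CPM/kb in GFP, 49.7 in MyoD, 60.3 in the chimera, 102 in the chimera at MOI 100, 82.7 in WC, 79.6 in WCS, 106 in WCS at MOI 100 and 93.9 in NeuroD2. In GFP the largest class by this measure was kainate with 41.7% of the sum, against 29.2% for the nicotinic class, 14.6% for AMPA and 9.22% for GABA-A. The nicotinic class held 42.9% in MyoD, 63.6% in the chimera, 74.3% in the chimera at MOI 100, 57.4% in WC, 56.3% in WCS, 58.4% in WCS at MOI 100 and 63.2% in NeuroD2. It was the largest class in all 7 libraries with a factor. Grik5 was the most abundant single member in GFP, at 15.8 CPM/kb or 33.9% of the sum, and Chrna4 was first in the other 7, at 15.5 CPM/kb in MyoD and 47.0 CPM/kb in the chimera at MOI 100. In MyoD, Grik5 at 14.7 CPM/kb was close behind Chrna4.

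**Figure D1:**
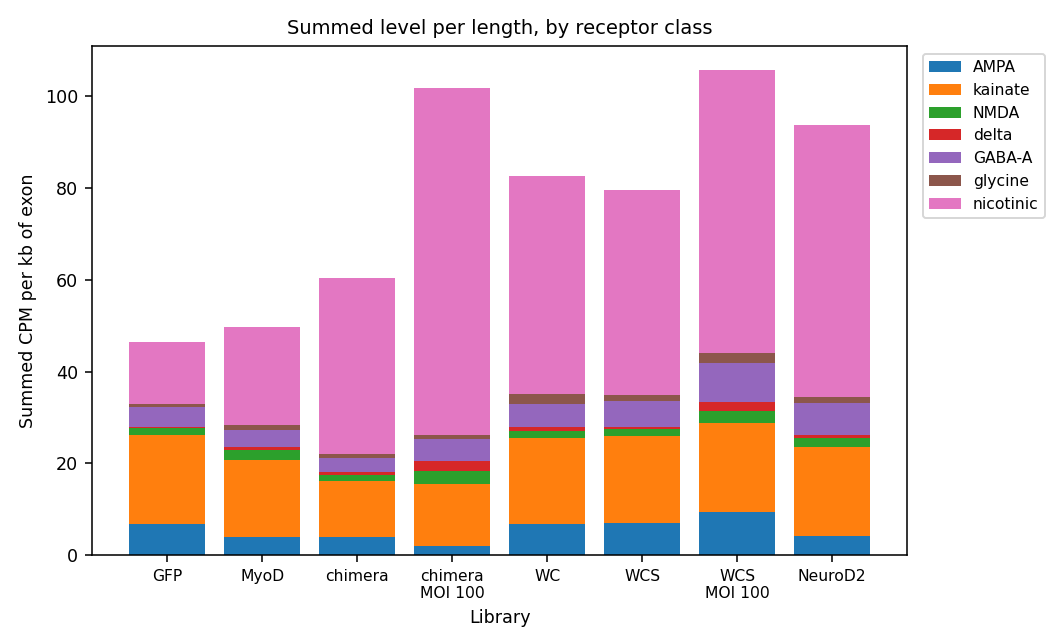
Receptor levels by class in the 8 libraries, as CPM per kilobase of merged exon summed over the members of each class. The nicotinic class grows from 13.6 CPM/kb in GFP to 75.7 CPM/kb in the chimera at MOI 100, while the kainate class lies between 12.1 and 19.5 CPM/kb in all 8 libraries.

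A member was called higher or lower when 2 libraries differed at least 4-fold on log2(CPM + 0.5), a scale that understates ratios of low genes. The same rule was applied to all 15547 genes at 1 CPM or more, and the shares they gave are printed beside the members' counts. Over GFP, MyoD had 2 of 29 members higher and none lower, where 3.41% of all genes were higher and 1.09% lower. NeuroD2 had 6 higher and none lower, against 5.25% and 1.99% of all genes. The chimera had 3 higher and none lower, against 2.83% and 0.888%. At MOI 100 it had 8 higher and 1 lower, against 6.56% and 3.07%. WC had 5 higher and none lower (3.2% and 0.765% of all genes), WCS 3 and none (3.13% and 1.14%), and WCS at MOI 100 10 and none (6.77% and 3.63%). All 7 comparisons share the GFP library. In all, 13 members were called over GFP at least once, 12 higher and 1 lower, and 16 never were. The share of all genes called at least once in the 7 comparisons was not computed, so these totals only describe the members. Median log2 differences of the 29 members ran from -0.0898 in MyoD to 0.93 in WCS at MOI 100, with 0.476 in NeuroD2, where the medians of all genes lay between -0.0251 and 0.0353 in these 7 comparisons.

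**Figure D2:**
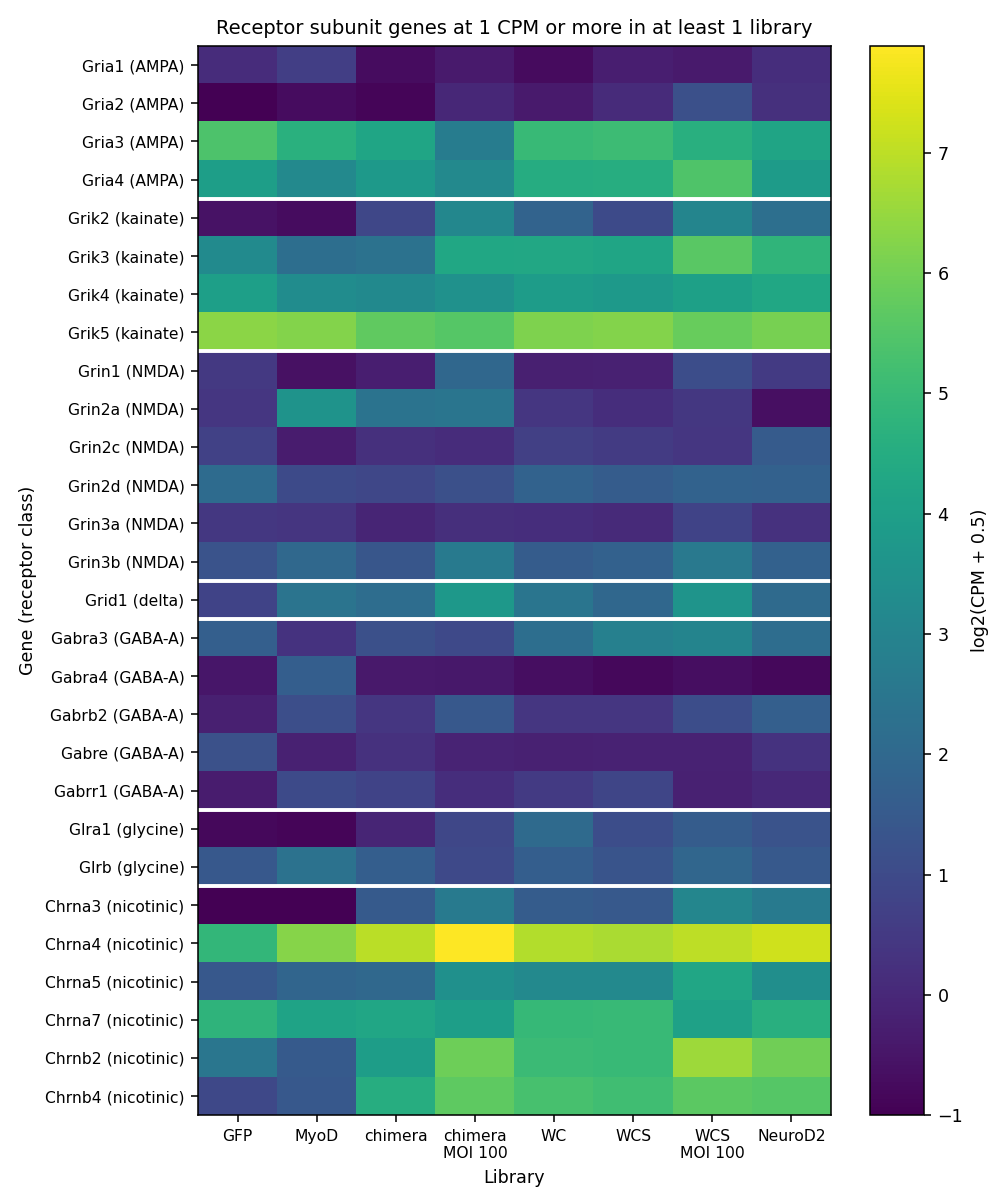
Levels of members that reached 1 CPM, as log2(CPM + 0.5), with genes in rows by class and the 8 libraries in columns. Nicotinic rows other than Chrna7 are highest outside GFP, Grin2a and Gabra4 are highest in MyoD, and Grik5 is high in every column.

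The nicotinic subunits showed the broadest difference from GFP. Chrnb4, Chrna3, Chrnb2 and Chrna4 were each called higher in NeuroD2, and none of the 6 expressed nicotinic genes was called in MyoD. Chrna4 (ENSMUSG00000027577), the main alpha partner in brain receptors, stood at 29.3 CPM in GFP, 77.8 in MyoD, 124 in the chimera, 236 in the chimera at MOI 100, 116 in WC, 107 in WCS, 129 in WCS at MOI 100 and 149 in NeuroD2. It was lowest in GFP, MyoD came next, and the 6 other libraries lay above both. Its ratio to GFP was 5.1 in NeuroD2 (95% interval 4.78 to 5.44), 4.24 in the chimera (3.97 to 4.54), 8.06 in the chimera at MOI 100 (7.58 to 8.58) and 2.65 in MyoD (2.47 to 2.85). These and the later intervals are exact Clopper-Pearson ones on the 2 counts and cover counting error only.

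Chrnb2 (ENSMUSG00000027950), the beta partner of Chrna4, had 5.13 CPM in GFP, 2.38 in MyoD, 14.8 in the chimera, 59.8 in the chimera at MOI 100, 33.0 in WC, 31.3 in WCS, 96.6 in WCS at MOI 100 and 61.9 in NeuroD2. MyoD was below GFP, by 2.16-fold (1.62 to 2.91), while NeuroD2 was 12.1-fold above it (10.5 to 14.0) and WCS at MOI 100 was 18.8-fold above it (16.4 to 21.7). Chrna4 and Chrnb2 therefore differed in MyoD, with Chrna4 above GFP and Chrnb2 below. By annotation 16.29% of the exon bases of Chrnb2 overlap Adar on the other strand, and whether counting used strand is not given. Adar itself lay between 72.7 and 85.1 CPM in the 8 libraries.

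Chrna5, Chrna3 and Chrnb4 are neighbours in that order on chromosome 9 and encode the ganglionic receptor. Chrnb4 (ENSMUSG00000035200) had 1.41 CPM in GFP, 2.23 in MyoD, 22.7 in the chimera, 50.3 in the chimera at MOI 100, 39.1 in WC, 35.5 in WCS, 49.1 in WCS at MOI 100 and 46.5 in NeuroD2. Every library except MyoD was called higher than GFP, from 16.1-fold in the chimera (12.3 to 21.4) to 35.6-fold in the chimera at MOI 100 (27.4 to 47.2), with 33.0-fold in NeuroD2 (25.3 to 43.7). Chrna3 (ENSMUSG00000032303) had no count in GFP or MyoD, and had 2.34 CPM in the chimera, 5.73 in the chimera at MOI 100, 2.47 in WC, 2.31 in WCS, 8.02 in WCS at MOI 100 and 5.90 in NeuroD2. Set against the floor of 3 counts in GFP, that is at least 27.2-fold higher in NeuroD2, 10.5-fold in the chimera and 37.2-fold in WCS at MOI 100. Chrna5 (ENSMUSG00000035594) had 2.24 CPM in GFP, 3.26 in MyoD, 3.47 in the chimera, 10.6 in the chimera at MOI 100, 8.57 in WC, 8.56 in WCS, 18.6 in WCS at MOI 100 and 9.96 in NeuroD2. It met the 4-fold rule only in both libraries at MOI 100, with ratios of 4.75 (3.75 to 6.06) for the chimera and 8.32 (6.67 to 10.5) for WCS. Together the 3 genes summed to 3.65 CPM in GFP and 5.49 in MyoD, against 28.5 to 75.7 CPM in the 6 other libraries.

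Chrna7, which forms receptors of 1 subunit kind, went its own way: 27.3 CPM in GFP, 17.4 in MyoD, 18.7 in the chimera, 15.2 in the chimera at MOI 100, 30.3 in WC, 31.6 in WCS, 16.6 in WCS at MOI 100 and 24.1 in NeuroD2. Its whole range was 15.2 to 31.6 CPM and it was called in no comparison. Chrna2, Chrna6, Chrna9 and Chrna10 stayed at or below 0.59 CPM. The neuron marker sums given above were higher in the same 6 libraries as Chrna3 and Chrnb4, and their part in these differences was not tested.

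**Figure D3:**
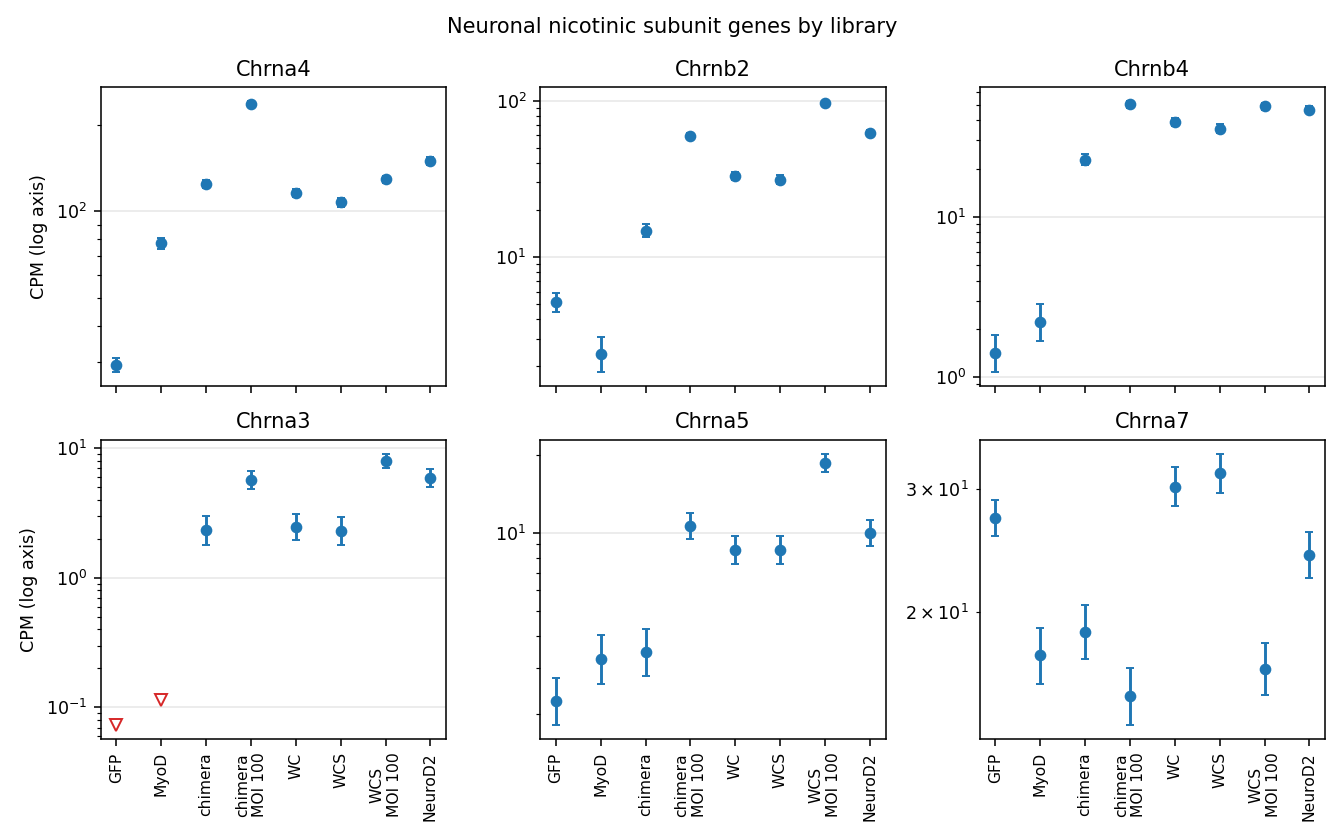
Levels of the 6 expressed neuronal nicotinic subunit genes in each library, in CPM on a log axis, with exact 95% Poisson intervals on the counts, which cover counting error only. Open triangles mark the floor of 3 counts where Chrna3 had none, in GFP and MyoD, and Chrna7 stays between 15.2 and 31.6 CPM.

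Among kainate receptor genes the ones for pore-forming low-affinity subunits, Grik2 and Grik3, varied, and those for the high-affinity partner subunits, Grik4 and Grik5, varied less. Grik2 (ENSMUSG00000056073) had 0.17 CPM in GFP, 0.115 in MyoD, 1.36 in the chimera, 8.12 in the chimera at MOI 100, 3.08 in WC, 1.495 in WCS, 7.68 in WCS at MOI 100 and 4.23 in NeuroD2. GFP and MyoD were again the lowest pair, and the ratio of NeuroD2 to GFP was 24.8 (11.7 to 63.1), on 121 against 7 counts. Grik3 (ENSMUSG00000001985) had 8.97 CPM in GFP, 4.19 in MyoD, 4.56 in the chimera, 18.95 in the chimera at MOI 100, 19.5 in WC, 18.1 in WCS, 48.1 in WCS at MOI 100 and 27.8 in NeuroD2. Here the chimera without the MOI label sat with MyoD, below GFP, and was 6.09-fold (5.03 to 7.44) below NeuroD2. Grik5 ranged from 46.2 CPM in the chimera at MOI 100 to 81.5 in GFP, and Grik4 from 8.70 in the chimera to 19.1 in NeuroD2, and neither was called anywhere.

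AMPA receptor genes gave no call over GFP in the MyoD, NeuroD2, chimera, WC or WCS libraries. Gria3 (ENSMUSG00000001986) had 41.8 CPM in GFP, 24.2 in MyoD, 18.4 in the chimera, 6.21 in the chimera at MOI 100, 31.5 in WC, 33.4 in WCS, 24.0 in WCS at MOI 100 and 17.8 in NeuroD2. It was highest in GFP, and its 6.72-fold lower level (5.76 to 7.88) in the chimera at MOI 100 was the only call of a lower member over GFP. Gria4 (ENSMUSG00000025892) had 15.4 CPM in GFP, 8.56 in MyoD, 13.2 in the chimera, 8.61 in the chimera at MOI 100, 22.2 in WC, 22.7 in WCS, 42.7 in WCS at MOI 100 and 14.2 in NeuroD2. WC and both WCS libraries were the 3 highest. Gria2 (ENSMUSG00000033981), whose edited subunit makes AMPA receptors impermeable to calcium, had no count in GFP, 0.115 CPM in MyoD, 0.0377 in the chimera, 0.486 in the chimera at MOI 100, 0.289 in WC, 0.578 in WCS, 1.76 in WCS at MOI 100 and 0.664 in NeuroD2. It reached 1 CPM in WCS at MOI 100 alone, with 56 counts, at least 7.82-fold above GFP. Gria1 lay between 0.0963 CPM in WC and 1.08 CPM in MyoD.

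NMDA receptor genes were low, and the obligatory subunit gene was among the low ones. Grin1 (ENSMUSG00000026959) had 0.9 CPM in GFP, 0.154 in MyoD, 0.339 in the chimera, 3.37 in the chimera at MOI 100, 0.353 in WC, 0.374 in WCS, 1.66 in WCS at MOI 100 and 0.908 in NeuroD2. Both MOI 100 libraries were the highest. Grin1os, which overlaps 13.47% of the Grin1 exon bases on the other strand, was also highest there, at 1.39 and 0.721 CPM, and reads of the pair cannot be told apart without a known strand setting. Grin2a (ENSMUSG00000059003), a subunit that sets the kinetics of the receptor, had 0.827 CPM in GFP, 11.3 in MyoD, 4.67 in the chimera, 4.93 in the chimera at MOI 100, 0.834 in WC, 0.611 in WCS, 0.846 in WCS at MOI 100 and 0.14 in NeuroD2. MyoD was highest, both chimera libraries came next, and GFP, WC and both WCS libraries lay together above NeuroD2. The MyoD to GFP ratio was 13.7 (9.59 to 20.2), and NeuroD2 was 81.1-fold (31.3 to 299) below MyoD on 4 against 295 counts. The chimera to GFP ratio was 5.65 (3.84 to 8.52), which on the log2(CPM + 0.5) scale is 1.96 and just misses the rule.

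The muscle marker sums were also highest in MyoD and next in both chimera libraries, and their part in the Grin2a difference was not tested. Of the other NMDA genes, Grin2c, Grin2d, Grin3a and Grin3b met the size rule in no comparison of 2 libraries. Grin2c lay between 0.307 and 2.45 CPM, Grin2d between 1.36 and 3.82, and Grin3a between 0.452 and 1.22. Grin2b lay between 0.104 and 0.803 CPM, under the minimum of 1 CPM, so the rule could not call it. Grin3b (ENSMUSG00000035745) had 1.90 CPM in GFP, 3.49 in MyoD, 2.11 in the chimera, 5.73 in the chimera at MOI 100, 2.50 in WC, 2.85 in WCS, 5.55 in WCS at MOI 100 and 2.87 in NeuroD2. It was highest in both MOI 100 libraries. Tmem259, at 67.3 to 92.5 CPM, overlaps 32.13% of its exon bases on the other strand, so its level is uncertain. Of the delta receptor genes, Grid1 (ENSMUSG00000041078), whose product binds cerebellins at synapses, had 1.22 CPM in GFP, 4.88 in MyoD, 4.03 in the chimera, 13.0 in the chimera at MOI 100, 4.98 in WC, 3.43 in WCS, 11.7 in WCS at MOI 100 and 3.70 in NeuroD2. GFP was the lowest and both MOI 100 libraries were the highest, 10.6-fold (7.91 to 14.6) and 9.61-fold (7.14 to 13.2) above GFP.

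Of the GABA-A genes, 6 reached 1 CPM. Gabra3 (ENSMUSG00000031343), an alpha subunit gene, had 2.75 CPM in GFP, 0.73 in MyoD, 1.77 in the chimera, 1.46 in the chimera at MOI 100, 4.14 in WC, 6.76 in WCS, 7.65 in WCS at MOI 100 and 4.02 in NeuroD2. MyoD was its lowest library and both WCS libraries its highest. Gabra4 (ENSMUSG00000029211), an alpha subunit found mostly outside synapses, had 2.65 CPM in MyoD and 0.219 in GFP, 0.264 in the chimera, 0.243 in the chimera at MOI 100, 0.128 in WC, 0.0679 in WCS, 0.125 in WCS at MOI 100 and 0.0699 in NeuroD2. MyoD stood alone, 12.1-fold (6.02 to 27.6) above GFP on 69 against 9 counts, and the chimera was close to GFP, with a ratio to GFP of 1.2 (0.381 to 3.64).

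Gabrb2 lay between 0.365 CPM in GFP and 2.73 in NeuroD2, Gabre between 0.384 in MyoD and 1.8 in GFP, and Gabrr1 between 0.292 in GFP and 1.497 in MyoD. None of these 3 was called in any of the 16 comparisons. Gabra5 lay between 0.151 and 0.376 CPM and Gabrg3 between 0 and 0.694 CPM, so both stayed under 1 CPM.

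Of the glycine receptor genes, the alpha subunit gene Glra1 (ENSMUSG00000000263) had 0.073 CPM in GFP, 0.0384 in MyoD, 0.452 in the chimera, 1.35 in the chimera at MOI 100, 3.76 in WC, 1.66 in WCS, 2.54 in WCS at MOI 100 and 1.92 in NeuroD2. WC was the highest and MyoD and GFP the lowest. GFP had only 3 counts, and the ratio to GFP was 26.3 in NeuroD2 (8.55 to 132) and 51.5 in WC (17.2 to 253). Gm12236, which overlaps 5.84% of the Glra1 exon bases on the other strand, was also highest in WC, at 0.738 CPM. Glrb, the beta subunit that ties the receptor to the scaffold gephyrin, lay between 1.46 CPM in the chimera at MOI 100 and 4.57 in MyoD and was called nowhere.

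**Figure D4:**
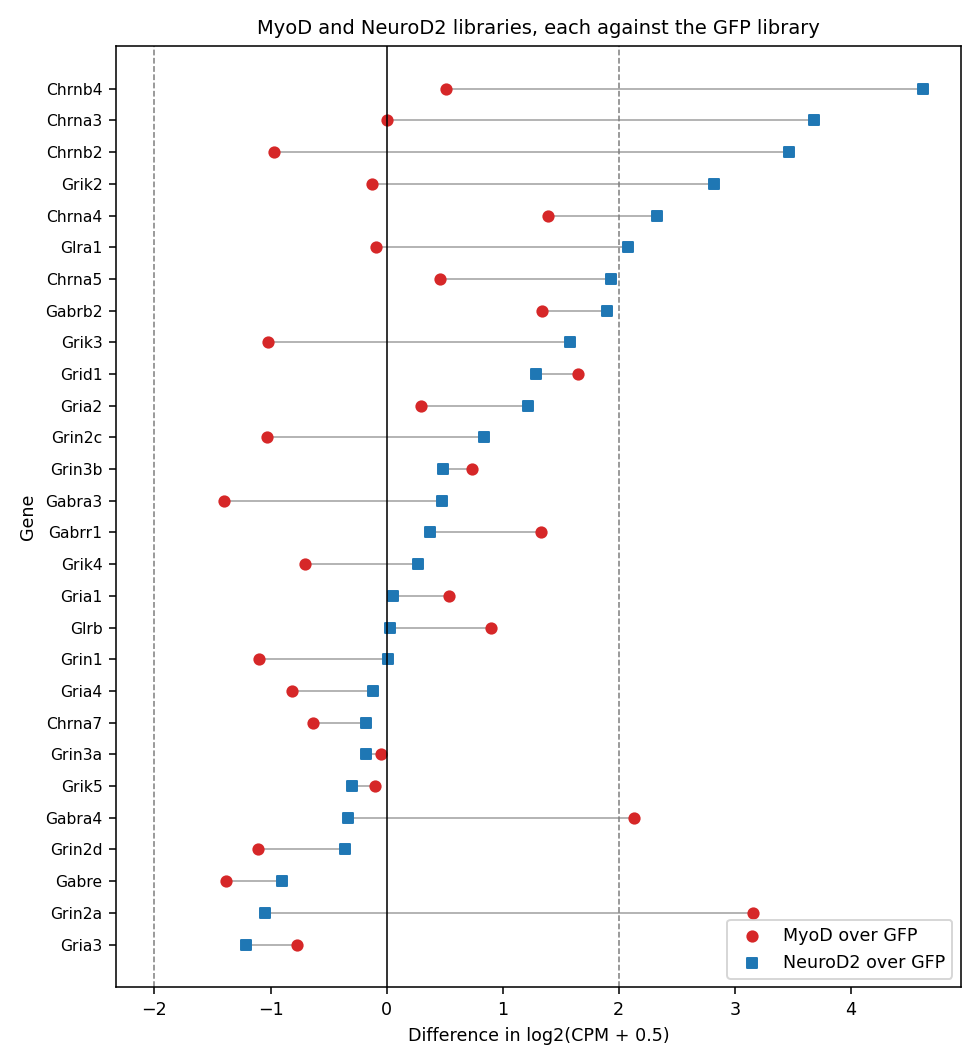
Differences of the MyoD library (circles) and the NeuroD2 library (squares) from the shared GFP library, on the log2(CPM + 0.5) scale, for members at 1 CPM or more, with dashed lines at 4-fold. MyoD lies beyond the upper line for Grin2a and Gabra4, NeuroD2 for Chrna3, Chrna4, Chrnb2, Chrnb4, Grik2 and Glra1, and neither lies beyond the lower line for any gene shown.

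Direct comparison of the 2 natural factors gave 6 members higher in NeuroD2 than in MyoD and 2 lower, where 5.23% and 3.13% of all genes were called. The 6 were Chrnb2 at 26-fold (20.2 to 34.1), Chrnb4 at 20.9-fold (16.0 to 27.7), Chrna3 at no less than 17.2-fold against the floor, Grik2 at 36.7-fold (12.3 to 180), Grik3 at 6.64-fold (5.43 to 8.18) and Glra1 at 50-fold (8.61 to 2012). The MyoD counts behind Grik2 and Glra1 were 3 and 1. Grin2a and Gabra4 were the lower pair, Gabra4 by 37.9-fold (10.1 to 319).

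The chimera was compared with each factor it was built from. Over MyoD it had 3 members higher, Chrna3, Chrnb2 (6.2-fold, 4.74 to 8.25) and Chrnb4 (10.2-fold, 7.77 to 13.6), and Gabra4 lower (10-fold, 4.62 to 25.9), where 1.87% and 2.21% of all genes were called. Over NeuroD2 it had Grin2a higher, by 33.4-fold (12.7 to 125), and Grik3 and Chrnb2 lower, Chrnb2 by 4.19-fold (3.76 to 4.69), where 0.868% and 1.97% of all genes were called. Of the 29 members, 23 were below NeuroD2 in the chimera, with a median log2 difference of -0.858 against 0.0055 for all genes. In the chimera library, then, Grin2a was above NeuroD2 while Chrna3 and Chrnb4 were above MyoD.

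The WC and WCS mutants were compared with the chimera they derive from. Over the chimera, WCS had no member higher and Grin2a lower, by 7.64-fold (4.64 to 13.3), where 0.74% and 1.04% of all genes were called. WC had Glra1 higher, by 8.31-fold (4.58 to 16.5), and none lower, where 0.579% and 0.778% of all genes were called. Grin2a was also lower in WC, at 0.834 CPM against 4.67 in the chimera, and just missed the rule. At MOI 100, WCS had Gria4 (4.96-fold, 4.33 to 5.7) and Gabra3 (5.25-fold, 3.77 to 7.46) higher than the chimera and Grin2a lower by 5.82-fold (3.84 to 9.15), where 0.727% and 1.58% of all genes were called. That call of Grin2a lies at the threshold, with a difference of -2.01 on the log2(CPM + 0.5) scale, and was lost with DESeq2 size factors and with scaling to total counts. Between WCS and WC no member was called, where 0.00643% of all genes were higher and 0.0257% lower, and Chrnb2 differed by 1.06-fold (0.965 to 1.16) and Chrna4 by 1.08-fold (1.03 to 1.13). Some members were further apart: Glra1 had 3.76 CPM in WC and 1.66 in WCS, Grik2 3.08 and 1.495, and Gabra3 4.14 and 6.76. Of the 29 members, 11 were higher in WCS than in WC and 18 lower.

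The chimera and WCS were each sequenced with and without the MOI 100 label, which allowed a fit of construct and MOI label over 4 libraries with edgeR's quasi-likelihood test and Benjamini-Hochberg adjustment over 16079 genes. It has 1 residual degree of freedom, and its p-values rest on the agreement of 2 construct differences, 1 per MOI label, rather than on the spread between cultures. Among 30 members tested, 9 rose in WCS against the chimera and 1 fell, where 5.84% of all genes rose and 5.49% fell. The median log2 fold change of the 30 was 0.422 against -0.00694 for all genes. With construct alone in the model no member passed (4 had an unadjusted p under 0.05), where DESeq2's Wald test on the full design called 8. Leaving out 1 of the 4 libraries leaves no residual degree of freedom with both terms, so those fits also dropped the MOI label, and no member passed in them (3 to 10 had an unadjusted p under 0.05).

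All but 1 of the AMPA genes rose in WCS: Gria3 by a log2 fold change of 1.39 (adjusted p = 0.021), Gria4 by 1.54 (adjusted p = 0.033) and Gria2 by 2.29 (adjusted p = 0.042), and Gria1 was below the count filter of the fit. The call of Gria2, which had 1 count in the chimera and 17 in WCS, was lost with DESeq2's Wald test (adjusted p = 0.15), without the count filter (0.055) and with all 8 libraries in the fit (0.052), and its log2 fold change ran from 1.12 to 4.82 when 1 library and the MOI term were left out. For Gria4, the chimera had 13.2 CPM and WCS 22.7 without the MOI label, and 8.61 and 42.7 CPM at MOI 100. For Gria3 these were 18.4 and 33.4 CPM, and 6.21 and 24.0 CPM. The 2 construct differences of each gene thus had the same sign but were unlike in size. Of kainate genes Grik3 rose, by 1.65 (adjusted p = 0.003), and Grik2 did not pass, at 0.0163 (adjusted p = 0.98). Among GABA-A genes Gabra3 rose, by 2.16 (adjusted p = 0.0047), while Gabrb2 was at -0.259 (adjusted p = 0.74). Among nicotinic genes Chrnb2 rose by 0.88 (adjusted p = 0.0085) and Chrna5 by 1.04 (adjusted p = 0.027). Chrna4 was at -0.542 (adjusted p = 0.081), Chrnb4 at 0.3 (adjusted p = 0.36) and Chrna3 at 0.263 (adjusted p = 0.65). Grin2a was the member that fell, by 2.72 (adjusted p = 0.0032). Over these 4 libraries the muscle marker sum was 1000 and 1625 CPM in the chimera and 27.1 and 17.2 CPM in WCS, and the neuron marker sum 743 and 2447 against 2032 and 4742 CPM. Myod1 was at 116 and 555 CPM in the chimera and at 77.3 and 857 CPM in WCS. The part of the marker sums and of Myod1 in these changes was not tested.

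**Figure D5:**
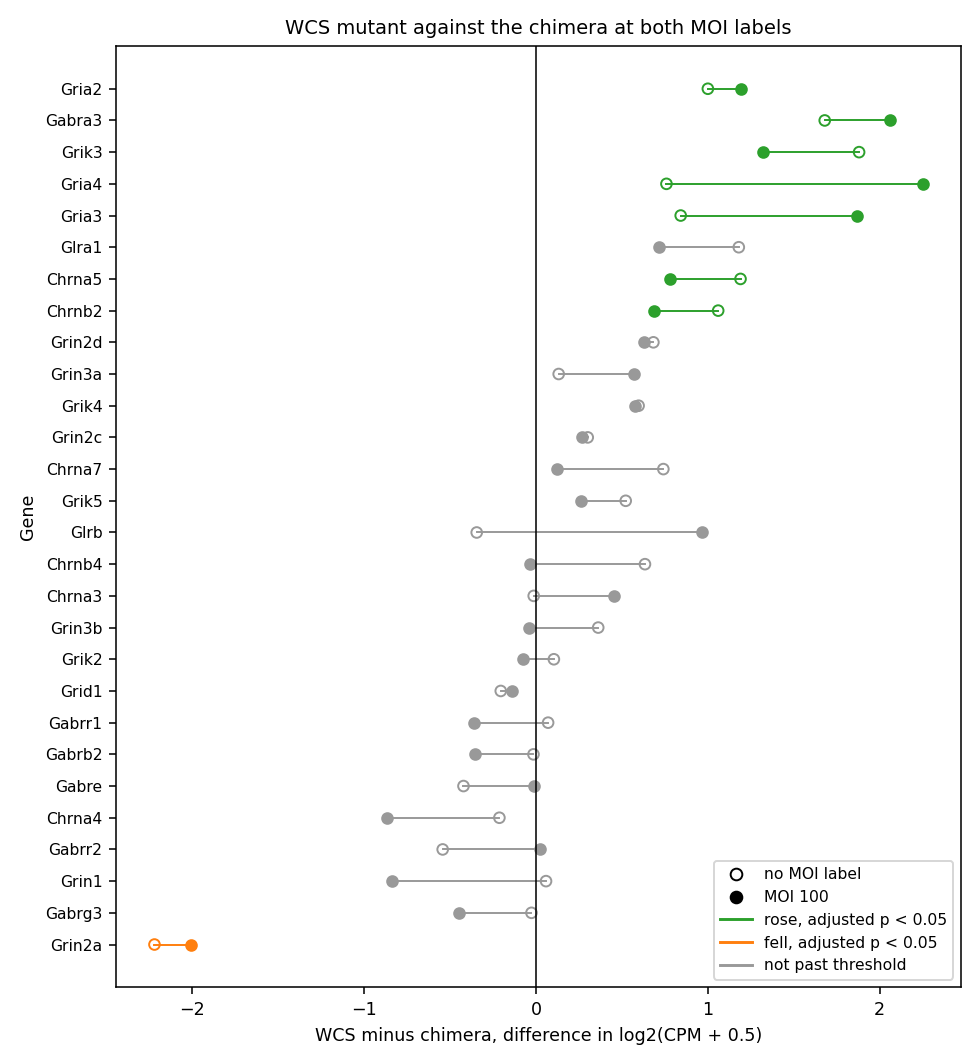
Difference of WCS from the chimera for members of the 4-library fit, in log2(CPM + 0.5), without an MOI label (open circles) and at MOI 100 (filled circles), with genes ordered by the fitted change and coloured by the test. Both circles of Grin2a lie below 0, and it is the only member coloured as fallen, while Grik3, Gabra3, Gria3, Gria4, Gria2, Chrna5 and Chrnb2 are coloured as risen.

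For the MOI label, 13 members rose at MOI 100 and 1 fell, where 13.4% of all genes rose and 12.2% fell, and the median was 0.843 against 0.0111 for all genes. Nicotinic genes made up 5 of the 13: Chrnb2 by 1.82 (adjusted p = 0.00093), Chrna3 by 1.55 (adjusted p = 0.011), Chrna5 by 1.35 (adjusted p = 0.0075), Chrnb4 by 0.802 (adjusted p = 0.018) and Chrna4 by 0.595 (adjusted p = 0.036). The others included Grik2 by 2.46 (adjusted p = 0.0022), Grik3 by 1.71, Grin1 by 2.72 (adjusted p = 0.0072), Grin3b by 1.19, Grid1 by 1.72, Gria2 by 2.01 and Gabrg3 by 2.23. Gabrg3 (ENSMUSG00000055026) stayed under 1 CPM throughout, at 0.113 and 0.694 CPM in the chimera pair and 0.102 and 0.376 CPM in the WCS pair. The call of Gria2 was lost with DESeq2's Wald test (adjusted p = 0.13), and that of Gabrg3 without the count filter (adjusted p = 0.078), while DESeq2 gave Gabrg3 no adjusted p. The gene that fell was Gria3, by 0.995 (adjusted p = 0.038). With 1 library and the construct term left out, Gria3 ran from -2.08 (without WCS at MOI 100) to -0.0801 (without the chimera at MOI 100), and Gria2 from 0.612 to 4.74. No member passed with the MOI label alone in the model (10 had an unadjusted p under 0.05), nor when 1 library was left out together with the construct term (6 to 9 had one), where DESeq2's Wald test on the full design called 12. By the 4-fold rule, the chimera at MOI 100 had Grik2 (5.99-fold, 4.2 to 8.76) and Grin1 (9.93-fold, 5.02 to 22.4) above the chimera and none below, where 0.862% and 0.251% of all genes were called. WCS at MOI 100 had Grik2 (5.14-fold, 3.71 to 7.25) above WCS and none below, where 0.926% and 0.553% of all genes were called.

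Proteins that work with these receptors were followed in lists made beside the members. A list of auxiliary subunits and associated proteins of glutamate receptors had 23 genes tested. Some, such as the cerebellin and neuronal pentraxin genes, do not encode auxiliary subunits. Of the 23, 7 were higher in NeuroD2 than in GFP, 1 (Cbln4) was higher in MyoD, and none was lower in either. Of all genes, 5.25% were higher in NeuroD2 and 3.41% in MyoD. The AMPA receptor auxiliary gene Gsg1l had 0.0486 CPM in GFP, 0.461 in MyoD, 29.4 in the chimera and 26.7 in NeuroD2. The AMPA assembly factor Frrs1l had 0.778 CPM in GFP, 0.499 in MyoD, 8.44 in the chimera and 33.9 in NeuroD2, and Cacng2, encoding stargazin, which brings AMPA receptors to the surface, had 0.073, 0.0384, 1.88 and 6.78 CPM. Nptxr, a neuronal pentraxin receptor, went the other way without meeting the rule, with 160 CPM in GFP and 39.9 in NeuroD2. Cbln4, a cerebellin, was higher in both, with 1.70 CPM in GFP, 8.601 in MyoD and 42.7 in NeuroD2. In the 4-library test 6 of 22 of these genes rose in WCS (Cacng3, Cacng4, Cacng7, Cnih2, Frrs1l and Cbln4) and 2 fell (Gsg1l and Shisa7), against 5.84% and 5.49% of all genes.

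Of 24 scaffold genes of excitatory synapses, 4 were higher in NeuroD2 and 3 in MyoD, against 5.25% and 3.41% of all genes, and none was lower. Lrrtm1, a synaptic adhesion gene, had 0.0486 CPM in GFP, no count in MyoD and 9.99 CPM in NeuroD2. Camk2a, a kinase of the postsynaptic density, had 0.268 CPM in GFP, 80.7 in MyoD, 21.0 in the chimera and 11.1 in NeuroD2, so that MyoD was its highest library. In WCS over the chimera 7 of 25 rose and 3 fell, against 5.84% and 5.49% of all genes, the latter being Shank3, Grip2 and Camk2a. A list for the inhibitory postsynapse and GABA receptor partners had 13 genes tested. Of these, 2 were higher in NeuroD2 (Plcl1 and Shisal1) and 2 in MyoD (Slc12a5 and Shisal1), against the same 5.25% and 3.41%. In WCS over the chimera 2 rose (Nlgn2 and Lhfpl4) and Shisal1 fell, where 5.84% and 5.49% of all genes did. Whether Shisal1 works at such synapses was not examined here. Slc12a5, the chloride exporter that makes GABA inhibitory in mature neurons, had 2.14 CPM in GFP, 19.5 in MyoD, 5.05 in the chimera and 9.05 in NeuroD2.

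Of 11 genes tied to nicotinic signalling, 4 were higher in NeuroD2 (Ache, Nacad, Ly6h and Chat) and 1 in MyoD (Ache), against 5.25% and 3.41% of all genes. Ache, encoding acetylcholinesterase, had 0.389 CPM in GFP, 27.0 in MyoD and 18.5 in NeuroD2. Chat, the enzyme that makes acetylcholine, reached 2.24 CPM in NeuroD2 and no more than 0.627 CPM elsewhere. Nacad is related to a chaperone of nascent proteins and is not an established receptor partner. The chaperone genes Ric3 and Tmem35a, which help nicotinic receptors assemble, were at 10.8 CPM or more in all 8 libraries. In WCS over the chimera 5 of the 11 rose (Tmem35a, Ly6h, Ly6e, Ache and Nacad) and Lynx1, a brake on these receptors, fell, against 5.84% and 5.49% of all genes. The muscle receptor genes differed from the neuronal ones, with 6 of 9 genes of the muscle endplate list higher in MyoD, where 3.41% of all genes were, and none in NeuroD2: Chrng, the fetal gamma subunit, had 214 CPM in MyoD, 16.2 in the chimera, 22.8 in the chimera at MOI 100 and at most 1.19 CPM elsewhere.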

How the data were processed

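RNA was measured in 8 P19 cultures, 1 poly(A)-selected library each. The authors deposited raw whole-number read counts by Ensembl gene, made with CASAVA 1.8.2, TopHat2 2.0.8 and genome build mm9, per the submitters' processing notes. How reads were counted, on which annotation and with which strand setting, is not given in the sources used here. Symbols and exon lengths came from GENCODE M21 by Ensembl ID (32850 genes, 87.5%), and no mm9 coordinates were used. Promoters came from RefSeq (GRCm38.p6).

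From the counts, CPM were computed with TMM factors in edgeR 4.0.16. Ratios of 2 libraries carry exact conditional binomial 95% intervals, and a fold against 0 counts uses a floor of 3 counts per library, with the lower bound of its interval given as an at-least value. These cover counting error only, since PCR reads are not independent molecules and each group had 1 library. A difference was called at 4-fold or more on log2(CPM + 0.5), for genes that reached 1 CPM in some library. There were 16 such comparisons, with no test. Chimera and WCS, each at both MOI labels, were tested by edgeR quasi-likelihood with terms for construct and label, after filterByExpr (limma 3.58.1, R 4.3.3), adjusted over all genes at a threshold of 0.05. No standard errors are given for its 1 residual degree of freedom.

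The rule for named genes was every member at 1 CPM or past a threshold, and of partner lists the 4 largest differences per factor over GFP plus those past the 4-library test. Members and lists were chosen with earlier results of these data known, so list counts are descriptions. Alternatives were DESeq2 1.42.0 scaling and Wald test, total counts, other pseudocounts, minimums and fold thresholds, other designs and leaving out each library. The steps were tested on simulated data. Tables and figures were made in Python 3.11.15 with scipy 1.17.1, pandas 2.3.3, matplotlib 3.10.9 and numpy 2.4.6. Single values of a few members are not reported here.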

Additional observations from a re-analysis of the deposited data

Results flagged for a closer look

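For 2 members the ratio of MOI 100 to no MOI label had counting intervals on opposite sides of 1 in the chimera and in WCS. Other members, such as Gabra3 at -0.214 and 0.166, also had opposite signs, with intervals that did not both lie clear of 1. Gria4 was lower at MOI 100 in the chimera, by -0.592 on the log2(CPM + 0.5) scale, and higher at MOI 100 in WCS, by 0.895. Glrb was at -0.68 in the chimera and at 0.63 in WCS. Each value rests on 1 library against 1, and the difference between the constructs was not tested.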

How the results depend on the processing

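Counts of members meeting the size rule are given over both directions. They only describe the members, since the number of all genes called moved with the setting too. Of 15547 genes, MyoD over GFP had 1461 higher and 1253 lower at 2-fold, against 530 and 170 at 4-fold. NeuroD2 over GFP had 2425 and 1526 at 2-fold, against 816 and 310. At 8-fold the numbers were 265 and 22 for MyoD and 373 and 58 for NeuroD2. With a pseudocount of 2 CPM they were 340 and 68, and 498 and 143. A pseudocount of 2 CPM in place of 0.5 left 1 for MyoD over GFP, 3 for NeuroD2 over GFP, 2 for WC over GFP, 4 for NeuroD2 over MyoD, 1 for chimera over MyoD, chimera over NeuroD2 and WCS over chimera at MOI 100, and 0 for WC over chimera, WCS over chimera, and MOI 100 over no label in chimera and WCS. A minimum of 5 CPM left 1 for MyoD over GFP, 0 for WC over chimera and 1 for the MOI label in the chimera. A threshold of 2-fold gave 12 for MyoD, 13 for NeuroD2, 10 for chimera, 15 for chimera at MOI 100, 10 for WC and 12 for WCS over GFP, 13 for NeuroD2 over MyoD, 7 for chimera over MyoD, 13 for chimera over NeuroD2, 7 for WC and WCS over chimera, 6 for WCS over chimera at MOI 100, and 12 and 9 for the MOI label in chimera and WCS. A threshold of 8-fold left 1 for MyoD, chimera, WC and WCS, 3 for NeuroD2 and 4 for both MOI 100 libraries over GFP, 4 for NeuroD2 over MyoD, 1 for chimera over MyoD and over NeuroD2, and 0 for the other 5 pairs that had a call. Scaling to total counts moved the median of all genes to 0.169 for NeuroD2 over GFP and 0.207 for WCS at MOI 100 over GFP, from 0.0305 and 0.0105, and it ended the call of Gabra4 for chimera over MyoD. In the 4-library fit, construct alone gave 0 members and MOI label alone 0, and leaving out each library, together with the other term since 3 libraries leave no residual degree of freedom with both, gave 0 to 0 for either term. The MOI fits without a library were chosen after seeing the data. Without WCS at MOI 100 and the MOI term, the construct change of Chrnb2 reversed to -0.243, which sets WCS against both chimera libraries, and over the 4 omissions it ran from there to 2.13. Within each MOI label WCS was above the chimera, by 1.06 and 0.686 on log2(CPM + 0.5). Other settings called 8 (DESeq2 Wald test, no filter, and all 8 libraries), 10 (DESeq2 size factors) and 13 (WC added) members for construct, and 12 and 13 (DESeq2 Wald test, no filter) for the MOI label. Of these construct calls 8, 8, 8, 10 and 10 were among the 10 reported. The fit with WC added counted WC, a different mutant, as if it were WCS, so it does not check WCS alone. It called 3023 of 16358 genes, where the main fit called 1821 of 16079. The cause of these shifts was not tested, except that fits without MOI label or a library have fewer terms or samples. Depth limits members under 0.115 CPM, where 3 counts or fewer were read. No paired analysis was possible because the labels carry no replicate numbers and each group had 1 library.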

Other observations

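Transmitter handling and other channel genes were read beside the receptors. Slc1a2, a glutamate uptake carrier, had 0.584 CPM in GFP, 2.995 in MyoD, 45.0 in the chimera, 150.2 in the chimera at MOI 100, 92.3 in WC, 68.1 in WCS, 174 in WCS at MOI 100 and 180 in NeuroD2. Slc17a7, a vesicular glutamate transporter, had 0.316 CPM in GFP and 13.8 to 49.6 CPM in the 7 other libraries, MyoD included at 23.1 CPM. Slc17a6, another vesicular glutamate transporter, had 0.122 CPM in GFP, 0.269 in MyoD, 8.14 in the chimera, 31.2 in the chimera at MOI 100, 54.6 in WC, 60.7 in WCS, 197.3 in WCS at MOI 100 and 60.7 in NeuroD2. In the 4-library test it rose in WCS against the chimera by a log2 fold change of 2.77 (edgeR's quasi-likelihood test, adjusted p = 0.00011). Of the 14 transmitter genes tested, 3 were higher in NeuroD2 than in GFP and 1 in MyoD, where 5.25% and 3.41% of all genes were, and Slc1a6, another glutamate carrier, was lower in both, with 16.8 CPM in GFP, 2.07 in MyoD and 1.29 in NeuroD2. Gad1, which makes GABA, stayed at or below 0.438 CPM in every library. Gad2, which also makes GABA, had 1.87 CPM in GFP, 3.92 in MyoD, 2.41 in the chimera and 0.0694 in the chimera at MOI 100. It had 5.23 CPM in WC, 2.51 in WCS, 0.251 in WCS at MOI 100 and 1.05 in NeuroD2.

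Among metabotropic receptor genes, Gabbr2, a subunit of the GABA-B receptor, had 0.438 CPM in GFP, 0.806 in MyoD, 2.68 in the chimera, 17.2 in the chimera at MOI 100, 12.4 in WC, 5.27 in WCS, 25.5 in WCS at MOI 100 and 40.5 in NeuroD2. It was the only 1 of 6 such genes called higher in NeuroD2 over GFP, where 5.25% of all genes were. None was called in MyoD, where 3.41% of all genes were higher, or in the chimera, where 2.83% were. At MOI 100 the chimera and WCS each had 3 of the 6 higher than GFP, where 6.56% and 6.77% of all genes were. WC and WCS each had 2 higher, where 3.2% and 3.13% of all genes were. P2rx3, an ATP-gated channel of sensory neurons, had 13.6 CPM in GFP, 43.4 in MyoD, 47.5 in the chimera, 134.5 in the chimera at MOI 100, 79.4 in WC, 73.4 in WCS, 249.7 in WCS at MOI 100 and 52.3 in NeuroD2. GFP was its lowest library, and in the 4-library test it rose in WCS against the chimera by a log2 fold change of 0.766 (edgeR's quasi-likelihood test, adjusted p = 0.0097). Asic1, an acid-sensing channel, rose by 1.37 in the same test (adjusted p = 0.00096).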
